A study of Homo sapiens with 12 samples.

Results

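The genes described here encode parts of the translation machinery and its signalling: MNK1, initiation and elongation factors and their modifying enzymes, poly(A)-binding and other mRNA-binding translation regulators, Rag GTPases and aminoacyl-tRNA synthetases. They were taken by a rule on the gene symbol alone, which 33 of the 8579 genes in the count table matched. No measured value entered the rule, but it was set with earlier results of these data known. RNA came from A375, a long-established human line of BRAF-mutated melanoma cells, after 72 hours of treatment. SEL201 cells received the MNK1 and MNK2 inhibitor SEL201 at 2.5 µM, OTX015 cells the BET bromodomain inhibitor OTX015 at 50 nM, and COMBO cells both agents at these doses, while the libraries titled UNTREATED carry DMSO, the drug solvent, as their treatment label. Each of the 4 groups had 3 libraries numbered 1 to 3, all from this 1 cell line. The series asks which transcripts accompany combined MNK and BET inhibition in BRAF-mutated melanoma cells.

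MNK1 and MNK2 are kinases that dock on the scaffold eIF4G and phosphorylate the cap-binding protein eIF4E. They are themselves switched on by ERK and p38 kinases, and ERK signalling is driven by mutant BRAF in melanoma. Translation then runs through initiation, elongation and termination, each with its own factors. The synthetases load tRNAs with amino acids, with one enzyme set for the cytosol and another, largely separate set for mitochondria. BET proteins bind acetylated chromatin and promote transcription, so an inhibitor of them acts on transcript levels, whereas MNK inhibition acts on protein phosphorylation. Only RNA was measured here, and neither the phosphorylation of eIF4E nor translation was.

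The 33 genes fell into 13 role classes. MKNK1, which encodes MNK1, is the measured MNK gene. The factors comprised EIF4A1, EIF4ENIF1, EIF3C, EIF5A2, EEF1E1 and EEFSEC, with 1 eIF2α kinase gene (EIF2AK3). Modifying enzymes were the 4 elongation factor methyltransferase genes EEF1AKMT1, EEF1AKMT2, EEF1AKMT3 and EEF2KMT. The mRNA-binding regulators were PABPC1L, PABPC4L, PABPC5, PAIP2B, LARP1B, CPEB1, CPEB2 and CPEB3, and the Rag GTPases were RRAGB and RRAGD. All 7 matching synthetase genes (FARS2, MARS2, NARS2, PARS2, RARS2, SARS2 and WARS2) encode mitochondrial enzymes. The remaining 4 (EEF1A1P5, EIF1AXP1, EIF4BP3 and EIF5AL1) are pseudogenes or near-identical copies of factor genes. MKNK2, EIF4E and most core initiation and elongation factor genes were not analysed here.

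Summed over the table, UNTREATED libraries held 20346729 to 24111541 counts, SEL201 libraries 16382375 to 22626418, OTX015 libraries 18917153 to 21834086 and COMBO libraries 15146071 to 23247709. Levels below are CPM, counts scaled to a common library total with TMM factors, so they can be compared between libraries but not between genes of different length. In these bulk samples, fewer cells of a type and less RNA per cell cannot be told apart. Of 12 melanocyte and melanoma markers 6 were measured. Their summed level was 655 to 720 CPM in UNTREATED, 522 to 548 with SEL201, 507 to 533 with OTX015 and 485 to 490 with COMBO. GPNMB was the most abundant, and MLANA, PMEL and MIA were at 3.5 to 7.58 CPM in single libraries. The markers did not move together. From UNTREATED to COMBO the means of GPNMB (443 to 213 CPM), MITF (173 to 154) and MIA (6.43 to 5.24) were lower. Those of S100B (54.1 to 103), MLANA (4.19 to 6.58) and PMEL (4.87 to 5.5) were higher. Of 5 fibroblast markers 3 were measured (DCN, LUM and PDGFRA). Their summed level was 62.2 to 85.5 CPM in UNTREATED, 47.4 to 59.7 with SEL201, 37 to 38.1 with OTX015 and 32.4 to 38.9 with COMBO. From UNTREATED to COMBO the means of LUM (45.9 to 7.85 CPM) and DCN (12.7 to 2.38) were lower, and that of PDGFRA (17.9 to 25.2) was higher. No measured marker was at 0. Leukocyte and endothelial markers were not analysed here, and the part of these marker levels in the results was not tested. Whether the libraries stem from separate cultures is not in the labels, and p-values therefore cover only how these 12 libraries scatter, which could be technical variation.

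Across the 33 genes, the combination raised 10 and lowered 5 against UNTREATED (edgeR, adjusted p under 0.05), or 45.5% in all, where 57.8% of all tested genes were called in one direction or the other. By direction, 28.3% of all genes were called higher and 29.6% lower. With the replicate number as a block 14 of the 33 were called higher and 7 lower, and the share of all genes with the block is not given here. The COMBO and UNTREATED libraries did not overlap for 15 of the 33 (higher) and 7 (lower), and for 62.6% of all genes in one direction or the other. Their median log2 change was 0.10, against 0 over all genes, and their median absolute log2 change was 0.19, against 0.26. Only PAIP2B and CPEB1 changed at least 2-fold among them, and 8.84% of all genes did. Without the block the genes called were therefore not more frequent than in the table as a whole, and their changes were mostly below 2-fold.

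**Figure D1:**
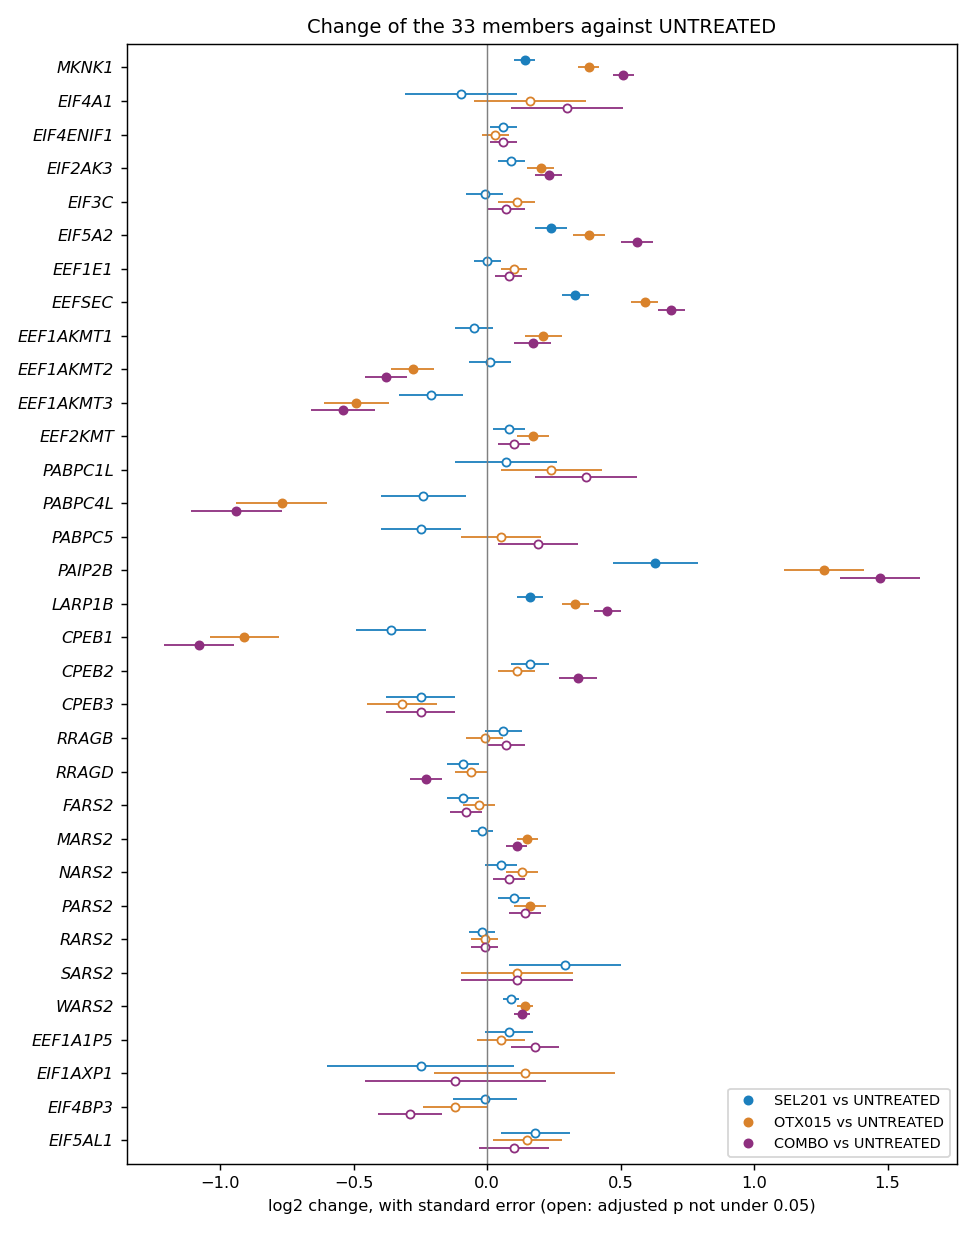
Log2 change against UNTREATED with its standard error for each of the 33 genes, in role order, for SEL201 (blue), OTX015 (orange) and COMBO (purple), with filled points where the edgeR adjusted p was under 0.05. PAIP2B reached the highest change (1.47 with COMBO) and CPEB1 the lowest (-1.08), while the 7 mitochondrial synthetase genes lay between -0.08 and 0.14 with COMBO.

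OTX015 alone raised 11 of the genes and lowered 4 (45.5%, against 48% of all genes: 23.3% higher and 24.7% lower). SEL201 alone raised 5 and lowered none (15.2%, against 21.2% of all genes: 10.1% higher and 11.1% lower). For the count of 0 lowered with SEL201, edgeR gave 1 gene at an unadjusted p under 0.05 and DESeq2 called 1. With the replicate number as a block, 7 were called higher and 2 lower with SEL201, where 37.1% of all genes were called. For OTX015 the block gave 14 higher and 5 lower, and the matching share of all genes is not given here. The SEL201 count of 5 was 3 without UNTREATED replicate 1 or 3 or SEL201 replicate 1 or 2. The 5 genes raised by SEL201 were MKNK1, EEFSEC, EIF5A2, LARP1B and PAIP2B, and all 5 were also raised by OTX015 and by COMBO, comparisons that share the UNTREATED libraries. A further 4 were raised by OTX015 and COMBO (EIF2AK3, EEF1AKMT1, MARS2 and WARS2) and 4 were lowered by both (CPEB1, PABPC4L, EEF1AKMT2 and EEF1AKMT3). CPEB2 (higher) and RRAGD (lower) passed with COMBO but with neither agent alone, EEF2KMT and PARS2 (both higher) passed with OTX015 alone, and 16 of the 33 passed in none of the 3. The shares of all genes with such shared calls are not given here, so these patterns are not read as particular to the 33.

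MKNK1 transcripts rose stepwise over the groups. UNTREATED libraries held 223, 226 and 221 CPM, SEL201 libraries 238, 260 and 241, OTX015 libraries 284, 293 and 294, and COMBO libraries 314, 319 and 324. None of the 4 groups overlapped with another, and every COMBO library lay above every OTX015 library. Means were 223 ± 2.49, 246 ± 11.9, 291 ± 5.54 and 319 ± 4.82 CPM (SD, n = 3). With COMBO the level was 1.43-fold higher (log2 change 0.51, SE 0.04, edgeR adjusted p = 9.8e-08). OTX015 was above SEL201 by 0.24 (SE 0.04, edgeR adjusted p = 0.00084), and COMBO above SEL201 by 0.37 (adjusted p = 8e-06). COMBO was above OTX015 by 0.13 (edgeR adjusted p = 0.062, or 0.0064 with the block). The step from UNTREATED to SEL201 (0.14, adjusted p = 0.022) missed the threshold in edgeR without SEL201 replicate 2 (adjusted p = 0.099) or UNTREATED replicate 1 (0.062) or 3 (0.058), without the 4 number 3 libraries (0.054) or with only the compared groups fitted (0.07).

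A list taken from general knowledge held 21 genes of kinases that act on MNK and of their activators, relatives and partners. Of these, 6 were measured, and not all encode kinases that act on MNK directly. COMBO lowered 3 and raised none, where 57.8% of all genes were called, and their median log2 change was -0.20, against 0 over all genes. MAPK11, which encodes p38β, fell from 79.8 ± 3.07 to 42.2 ± 1.79 CPM with COMBO (-0.92 as a log2 change, SE 0.07, edgeR adjusted p = 1.3e-07). MAPK11 was at 65.3 ± 4.51 CPM with SEL201 and 53.4 ± 3.56 with OTX015, and COMBO was below OTX015 by 0.34 on the log2 scale (adjusted p = 0.016). MAPK3, which encodes ERK1, fell from 313 ± 5.21 to 210 ± 20.6 CPM (log2 change -0.57, adjusted p = 1.7e-05). MAPK12, the p38γ gene, had a log2 change of -0.33 (adjusted p = 2.6e-06). BRAF itself had a log2 change of -0.06 (adjusted p = 0.22), and MAP2K6, a p38 activator, and CYFIP2 did not pass without the block. With the replicate block both were called higher, so that 3 were lower and 2 higher: MAP2K6 at 0.12 (adjusted p = 0.036) and CYFIP2 at 0.19 (adjusted p = 0.00048). The 57.8% is the share without the block, and the share with it is not given here.

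EIF4A1, the RNA helicase that unwinds mRNA leaders together with eIF4E and eIF4G, differed more between replicate numbers than between groups. Its levels were 42, 40.8 and 61 CPM in UNTREATED, 42.6, 34.9 and 56.8 in SEL201, 46.6, 49.1 and 64.3 in OTX015 and 51, 49.4 and 77.4 in COMBO. The groups overlapped, and the number 3 library was the highest of every group. PABPC1L, a poly(A)-binding protein gene first described in germ cells, showed the same order, with 185, 196 and 287 CPM in UNTREATED, 215, 194 and 291 in SEL201, 239, 241 and 310 in OTX015 and 260, 242 and 361 in COMBO. SARS2, the mitochondrial seryl-tRNA synthetase gene, was the other member highest in number 3 throughout, at 7.24 to 9.55 CPM there and 5.59 to 7.66 in the other libraries. Of their 75-base transcript stretches, 38.2% for EIF4A1 and 36.6% for SARS2 also occur in another gene, so these counts are uncertain.

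**Figure D2:**
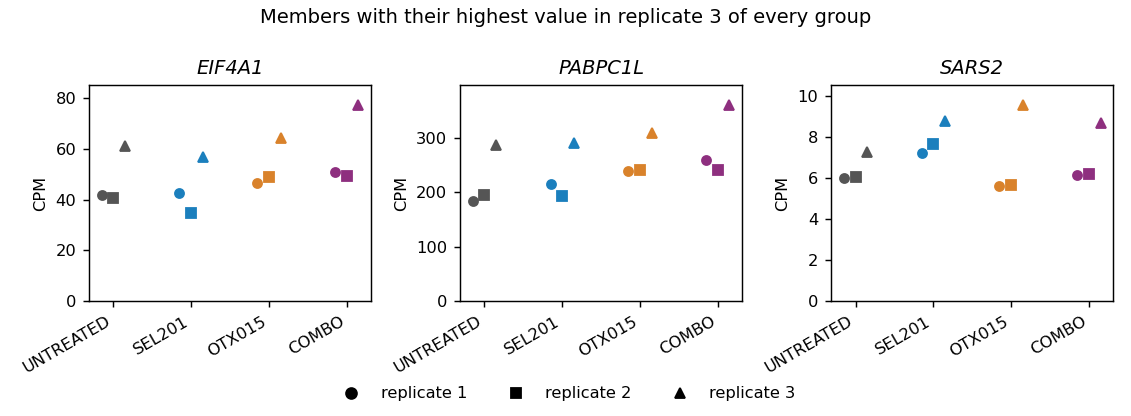
Level in CPM of EIF4A1, PABPC1L and SARS2 in each library of UNTREATED, SEL201, OTX015 and COMBO (points, shaped by replicate number), with axes from 0. The number 3 library is the highest of its group in all 12 cases, by 0.24 to 0.75 on the log2 scale above the mean of numbers 1 and 2.

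Such a pattern was no more frequent here than in the table: 3 of 33 (9.09%) were highest in number 3 in all 4 groups, against 11.6% of all genes, and 3 (EEF1AKMT3, PABPC4L and PARS2) were lowest there, against 9.94%. For PABPC1L the log2 change with COMBO was 0.37 (SE 0.19, edgeR adjusted p = 0.11). In the fit with the replicate block it was 0.38 (adjusted p = 8.8e-09). Its change with OTX015 was 0.24 (edgeR adjusted p = 0.31, and 8.3e-06 with the block), and with SEL201 0.07 (adjusted p = 0.84, and 0.2 with the block). EIF4A1 had log2 changes of 0.30 with COMBO (adjusted p = 0.24, and 0.00036 with the block) and 0.16 with OTX015 (adjusted p = 0.57, and 0.043 with the block). SARS2 passed in no comparison against UNTREATED with or without the block (log2 change with COMBO 0.11, SE 0.21, adjusted p = 0.69). What sets the number 3 libraries apart was not tested.

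The other initiation genes changed little. EIF4ENIF1, which encodes the eIF4E carrier 4E-T, lay between 174 and 200 CPM in all 12 libraries, and its log2 change with COMBO was 0.06 (SE 0.05, edgeR adjusted p = 0.27). EIF3C, a core subunit of the scaffold complex eIF3, had a change of 0.07 (adjusted p = 0.42). EIF2AK3 encodes PERK, the kinase that phosphorylates eIF2α under stress of the endoplasmic reticulum, and stood at 126, 145 and 133 CPM in UNTREATED, 142, 146 and 143 in SEL201, 148, 159 and 157 in OTX015 and 162, 158 and 154 in COMBO. Every OTX015 and COMBO library was above every UNTREATED library. The rise was 0.20 with OTX015 (edgeR adjusted p = 0.0078) and 0.23 for COMBO (SE 0.05, adjusted p = 0.0022).

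Genes of the integrated stress response, the program that eIF2α phosphorylation starts through the transcription factor ATF4, were taken as a neighbouring list of 36, of which 13 were measured. COMBO lowered 6 and raised 2. OTX015 lowered 5 and raised 2, where 48% of all genes were called, and SEL201 raised 1 and lowered none, where 21.2% were. With the block COMBO lowered 8 and raised 3, OTX015 lowered 6 and raised 3, and SEL201 lowered 2 and raised 3. With the block 37.1% of all genes were called for SEL201, and the shares for COMBO and OTX015 are not given here. STC2 (stanniocalcin 2) fell from 366 ± 6.36 to 241 ± 19.8 CPM (a log2 difference of -0.60, SE 0.06, edgeR adjusted p = 8.7e-07). PYCR1, an enzyme of proline synthesis, had a change of -0.58 (adjusted p = 6.7e-06), and JDP2, a transcriptional repressor gene, one of -0.95 (adjusted p = 7.6e-05). SESN2, a sestrin gene whose product restrains mTORC1, rose by 0.32 (adjusted p = 7.8e-05). The list's median log2 change with COMBO was -0.16, against 0 over all genes. Without the block, 8 of 13 called compares with 57.8% of all genes.

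EEFSEC and EIF5A2 were the factors of elongation that rose. EEFSEC encodes the specialised elongation factor that brings selenocysteine tRNA to the ribosome. Its levels were 122, 118 and 125 CPM in UNTREATED, 155, 157 and 148 in SEL201, 195, 184 and 170 in OTX015 and 198, 199 and 193 in COMBO. All treated libraries lay above all UNTREATED libraries, and OTX015 and COMBO overlapped. SEL201 raised it by 0.33 on the log2 scale (edgeR adjusted p = 0.00061) and OTX015 by 0.59 (adjusted p = 8e-07). COMBO raised it by 0.69, or 1.61-fold (adjusted p = 8.1e-08), each with an SE of 0.05. COMBO against OTX015 gave 0.10 (SE 0.05, adjusted p = 0.29), so the step that SEL201 added on top of OTX015 was not past the threshold.

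EEFSEC was also the member with the lowest p in the test of additivity. That test subtracts the log2 changes of SEL201 and of OTX015 from that of COMBO, and for EEFSEC the remainder was -0.23 (SE 0.07, edgeR adjusted p = 0.3, or 0.027 with the block). No member passed it in edgeR without the block or in DESeq2, 1 had an unadjusted p under 0.05, and 0.28% of all genes were called. With the block EEFSEC was called lower than additive, where 6.75% of all genes were called. For MKNK1 the same remainder was -0.01 (SE 0.06, adjusted p = 0.99).

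EIF5A2 encodes the less widely expressed isoform of eIF5A, a factor that relieves ribosomes stalled at proline-rich stretches. It stood at 106, 114 and 110 CPM in UNTREATED, 130, 133 and 127 in SEL201, 131, 150 and 148 in OTX015 and 161, 167 and 157 in COMBO. UNTREATED was below all treated libraries and COMBO above all others, while SEL201 and OTX015 overlapped. The rise was 1.47-fold with COMBO (log2 change 0.56, SE 0.06, edgeR adjusted p = 1.2e-06). It was 0.24 with SEL201 (adjusted p = 0.0082) and 0.38 with OTX015 (adjusted p = 8.2e-05). COMBO was above SEL201 by 0.32 (edgeR adjusted p = 0.00049), and above OTX015 by 0.18 (adjusted p = 0.076, and 0.0047 with the block). EEF1E1, which encodes a scaffold protein of the multi-synthetase complex, had a log2 change of 0.08 with COMBO (adjusted p = 0.19).

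EEFSEC, EIF5A2 and the synthetase gene MARS2, which all rose with COMBO, share 2 short motifs in the 250 bases before their start sites. The windows come from RefSeq's promoter table (GRCh38.p14), in which 26 of the 33 genes had an entry, and 1 window per gene was searched on both strands from 250 bases before to 50 after the start. The E-box CACGTG and the ETS motif CCGGAAG were both present in 3 of 26 windows (11.5%) and in 299 of the 27305 windows of the whole promoter table (1.1%). That set includes genes outside the count table, and every motif share of all refers to it. A share over the counted genes alone is not given here. The capitals mark the E-box, or the ETS motif as CCGGAAG or, on the other strand, CTTCCGG. The E-box alone was in 4 of 26 (15.4%, against 7.43% of all) and the ETS motif in 7 of 26 (26.9%, against 10.7%), the others being PARS2, EIF2AK3, EEF1E1 and SARS2. A further window of CPEB1, which fell with COMBO, lies outside these counts and holds an E-box at -111 from its start site. Other genes that rose with COMBO lacked the pair: MKNK1, PAIP2B, LARP1B, CPEB2 and WARS2 held neither motif. EIF2AK3 held only the ETS motif, and EEF1AKMT1 had no window. RRAGB is shown with the 3 genes that hold both because it holds 2 E-boxes and no ETS motif and did not pass the test with COMBO. The regions are chr3:128153231-128153480 on the plus strand for EEFSEC, chr3:170908638-170908887 on the minus strand for EIF5A2, chr2:197705119-197705368 on the plus strand for MARS2 and chrX:55717499-55717748 on the plus strand for RRAGB, each written 5′ to 3′ and ending at the base before the start site.
EEFSEC: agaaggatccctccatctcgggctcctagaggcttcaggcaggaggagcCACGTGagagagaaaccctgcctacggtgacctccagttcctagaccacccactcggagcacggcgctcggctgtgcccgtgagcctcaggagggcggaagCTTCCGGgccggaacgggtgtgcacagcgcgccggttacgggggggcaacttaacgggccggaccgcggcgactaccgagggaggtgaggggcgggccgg
EIF5A2: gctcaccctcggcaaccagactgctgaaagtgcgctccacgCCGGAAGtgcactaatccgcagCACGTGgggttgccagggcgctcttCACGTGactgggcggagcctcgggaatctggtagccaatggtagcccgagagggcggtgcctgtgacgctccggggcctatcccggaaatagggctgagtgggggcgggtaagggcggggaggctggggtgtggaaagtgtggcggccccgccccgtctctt
MARS2: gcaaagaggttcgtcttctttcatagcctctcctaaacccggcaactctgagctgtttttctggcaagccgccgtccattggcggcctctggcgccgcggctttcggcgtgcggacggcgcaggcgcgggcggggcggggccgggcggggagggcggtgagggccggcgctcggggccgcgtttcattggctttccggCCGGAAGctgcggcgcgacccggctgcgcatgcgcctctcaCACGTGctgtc
RRAGB: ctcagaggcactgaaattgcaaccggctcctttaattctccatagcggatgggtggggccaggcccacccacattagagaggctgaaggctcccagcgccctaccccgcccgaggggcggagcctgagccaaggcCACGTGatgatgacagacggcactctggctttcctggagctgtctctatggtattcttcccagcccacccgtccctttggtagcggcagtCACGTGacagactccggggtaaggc

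In EEFSEC the E-box begins 201 bases and the ETS motif 100 bases before the start site. In EIF5A2 the ETS motif begins 209 bases before the start, with E-boxes at 187 and 162. In MARS2 they lie closer, with the ETS motif at 52 and the E-box at 11 bases, and the E-boxes of RRAGB begin 115 and 25 bases before its start. Of the other motifs searched, the GC box GGGCGG was in 22 of 26 windows (84.6%, against 44.6% of all), CCAAT in 13 (50%, against 35.7%) and the TATA box TATAAA in none (against 12% of all). These are matches of letters in a window and no measure of binding, and their relation to the changes was not tested.

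The 4 methyltransferase genes of elongation factors moved in both directions. Their products add methyl groups to lysines of eEF1A (EEF1AKMT1, EEF1AKMT2 and EEF1AKMT3) or of eEF2 (EEF2KMT). EEF1AKMT3 stood at 47.6, 52.6 and 47.2 CPM in UNTREATED, 37.8, 51.8 and 37.7 in SEL201, 34.7, 36.4 and 33.6 in OTX015 and 32.5, 39.1 and 30 in COMBO. OTX015 and COMBO libraries were all below UNTREATED, whereas SEL201 overlapped with UNTREATED and COMBO but not with OTX015. The log2 change was -0.49 with OTX015 (edgeR adjusted p = 0.0043) and -0.54 for COMBO (SE 0.12, adjusted p = 0.0019), and with SEL201 it was -0.21 (adjusted p = 0.25, and 0.022 with the block).

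EEF1AKMT2 was lower in every library with OTX015. Its 3 UNTREATED libraries held 54.6, 54.4 and 51.8 CPM and the SEL201 libraries 51.6, 51.8 and 59.1, against 44.8, 44.5 and 43.3 in OTX015 and 45.3, 41.9 and 36.2 in COMBO. The 6 libraries with OTX015, alone or combined, did not overlap with the 6 without it. The change was 0.01 with SEL201 (SE 0.08, adjusted p = 0.93), -0.28 with OTX015 (adjusted p = 0.014) and -0.38 for COMBO (SE 0.08, edgeR adjusted p = 0.0015). EEF1AKMT1 went up instead, with log2 changes of 0.21 with OTX015 (adjusted p = 0.016) and 0.17 with COMBO (adjusted p = 0.043). The COMBO call did not hold in edgeR without UNTREATED replicate 1 (adjusted p = 0.056) or 3 (0.18), COMBO replicate 1 (0.12), 2 (0.052) or 3 (0.076) or SEL201 replicate 1 (0.052) or 2 (0.051), nor without the 4 number 3 libraries (0.22) or with only the compared groups (0.067), and the OTX015 call did not without OTX015 replicate 1 (0.081), UNTREATED replicate 3 (0.075) or the 4 number 3 libraries (0.066). The COMBO change was 0.11 without UNTREATED replicate 3. EEF2KMT was higher with OTX015 (0.17, edgeR adjusted p = 0.021), a call lost without OTX015 replicate 1 (0.074) or 3 (0.06), UNTREATED replicate 2 (0.064) or 3 (0.085) or the 4 number 3 libraries (0.12), and had a change of 0.10 with COMBO (adjusted p = 0.17).

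PAIP2B and LARP1B rose. PAIP2B encodes a protein that binds poly(A)-binding protein and displaces it from the poly(A) tail. It had the largest rise of the 33, from 5.88, 5.31 and 5.71 CPM in UNTREATED to 10.6, 7.21 and 8.23 in SEL201, 14.7, 12.9 and 13.1 in OTX015 and 16.2, 13.3 and 17.5 in COMBO. UNTREATED and SEL201 overlapped with no other group, and OTX015 overlapped with COMBO. The rise with COMBO was 2.78-fold (log2 change 1.47, SE 0.15, edgeR adjusted p = 1.7e-06), on counts of 115 to 137 per UNTREATED library and 264 to 377 per COMBO library. OTX015 gave 1.26 (SE 0.15, adjusted p = 1.4e-05) and SEL201 0.63 (SE 0.16, adjusted p = 0.012), the latter not past the threshold without SEL201 replicate 1 (log2 change 0.45, edgeR adjusted p = 0.068). OTX015 was above SEL201 by 0.64 (adjusted p = 0.0078).

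LARP1B encodes a paralog of LARP1, which binds mRNAs that code for ribosomal proteins. Its levels were 244, 256 and 232 CPM in UNTREATED, 275, 280 and 262 in SEL201, 298, 321 and 304 in OTX015 and 333, 351 and 315 in COMBO. Successive groups in that order did not overlap except OTX015 and COMBO. SEL201 gave a log2 change of 0.16 (SE 0.05, adjusted p = 0.038 in edgeR), against 0.33 with OTX015 (adjusted p = 9.5e-05) and 0.45 for COMBO (SE 0.05, adjusted p = 3.6e-06). The SEL201 call did not hold without SEL201 replicate 1 (edgeR adjusted p = 0.1) or 2 (0.12), UNTREATED replicate 1 (0.089) or 3 (0.13) or the 4 number 3 libraries (0.056), or with only the compared groups (0.054).

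PABPC4L and PABPC5 are little-studied relatives of poly(A)-binding protein, which coats mRNA tails and links them to the initiation complex. PABPC4L stood at 26.2, 29.8 and 23.9 CPM in UNTREATED, 20.8, 26.1 and 20.7 in SEL201, 15.4, 18.9 and 12.7 in OTX015 and 15.3, 15.5 and 10.6 in COMBO. The 6 libraries with OTX015 were all below the 6 without it, and UNTREATED overlapped with SEL201. OTX015 gave a log2 change of -0.77 (edgeR adjusted p = 0.0017) and COMBO one of -0.94 (adjusted p = 0.00025), each with an SE of 0.17, and the latter was a 1.92-fold fall on 160 to 354 counts per COMBO library. With SEL201 it was -0.24 (adjusted p = 0.34). PABPC5 lay at 7.44 to 13.4 CPM and passed in no comparison against UNTREATED. It was above SEL201 in COMBO by 0.45 (SE 0.15, adjusted p = 0.029), a call lost in edgeR without SEL201 replicate 1 (0.066) or 3 (0.11), COMBO replicate 1 (0.076) or 2 (0.062) or the 4 number 3 libraries (0.13), or with only the compared groups (0.053).

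**Figure D3:**
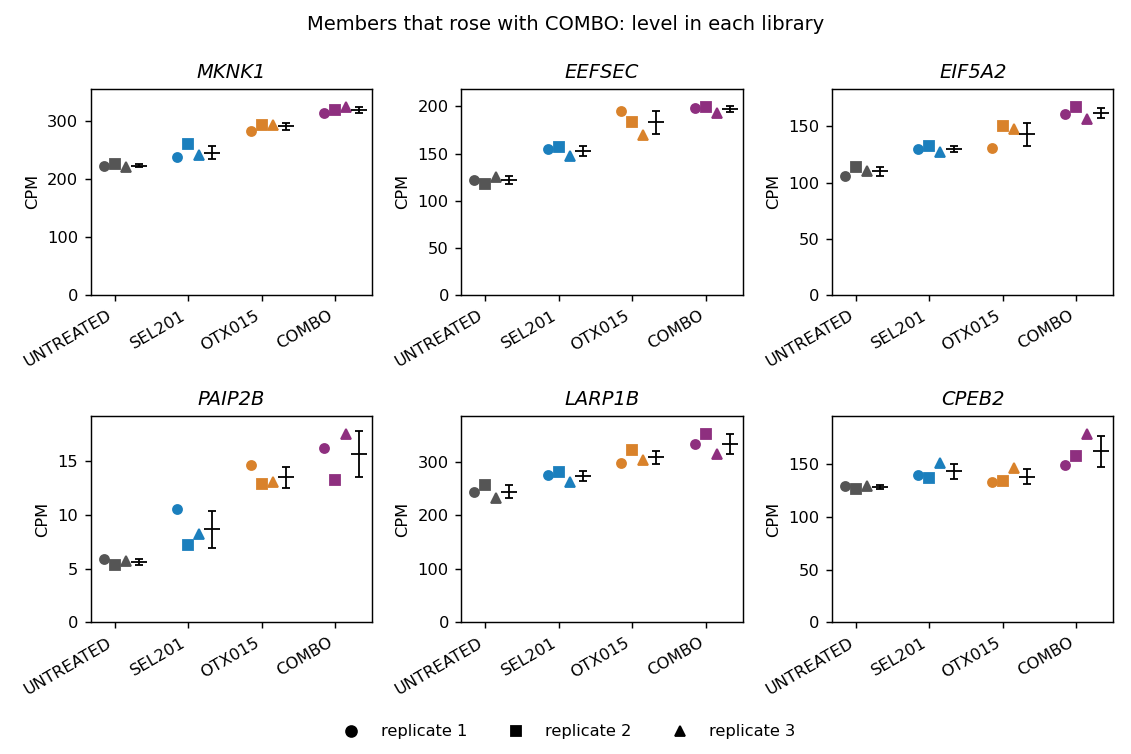
Level in CPM of MKNK1, EEFSEC, EIF5A2, PAIP2B, LARP1B and CPEB2 in each library (points, shaped by replicate number), with the mean and SD of each group (bars, n = 3) and axes from 0. For the first 5 all COMBO and OTX015 libraries lie above all UNTREATED libraries, and for CPEB2 the COMBO libraries, at 149 to 178 CPM, lie above UNTREATED at 126 to 129.

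The 3 measured CPEB genes differed from each other. CPEB proteins bind uridine-rich elements in mRNAs and lengthen or shorten their poly(A) tails, which turns translation up or down. CPEB1, the founding member, fell from 21.7, 23 and 26.4 CPM in UNTREATED to 19.5, 18.1 and 17.7 in SEL201, 10.7, 12 and 15 in OTX015 and 10.2, 11 and 12.7 in COMBO. UNTREATED lay above SEL201 and both lay above all libraries with OTX015, while OTX015 and COMBO overlapped. The fall was 2.11-fold with COMBO (log2 change -1.08, SE 0.13, edgeR adjusted p = 9.7e-06) and 1.88-fold with OTX015 (log2 change -0.91, SE 0.13, adjusted p = 6.8e-05). With SEL201 the change was -0.36 (SE 0.13, adjusted p = 0.067, and 0.011 with the block). COMBO against OTX015 gave -0.16 (SE 0.14, adjusted p = 0.55).

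CPEB2 went up. Its libraries held 129, 126 and 129 CPM in UNTREATED, 140, 137 and 151 in SEL201, 133, 134 and 146 in OTX015 and 149, 158 and 178 in COMBO. COMBO lay above UNTREATED and OTX015 and overlapped with SEL201. The rise with COMBO was 1.26-fold (log2 change 0.34, SE 0.07, edgeR adjusted p = 0.00049), against 0.16 with SEL201 (adjusted p = 0.11, and 0.0099 with the block) and 0.11 with OTX015 (adjusted p = 0.19). COMBO against OTX015 gave 0.23 (SE 0.07, edgeR adjusted p = 0.051, and 0.00055 with the block), which was past the threshold with RLE size factors, DESeq2 and the stricter filter. CPEB3 had a change of -0.25 with COMBO (SE 0.13, adjusted p = 0.11, and 0.048 with the block) and of -0.32 with OTX015 (adjusted p = 0.057, and 0.016 with the block).

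**Figure D4:**
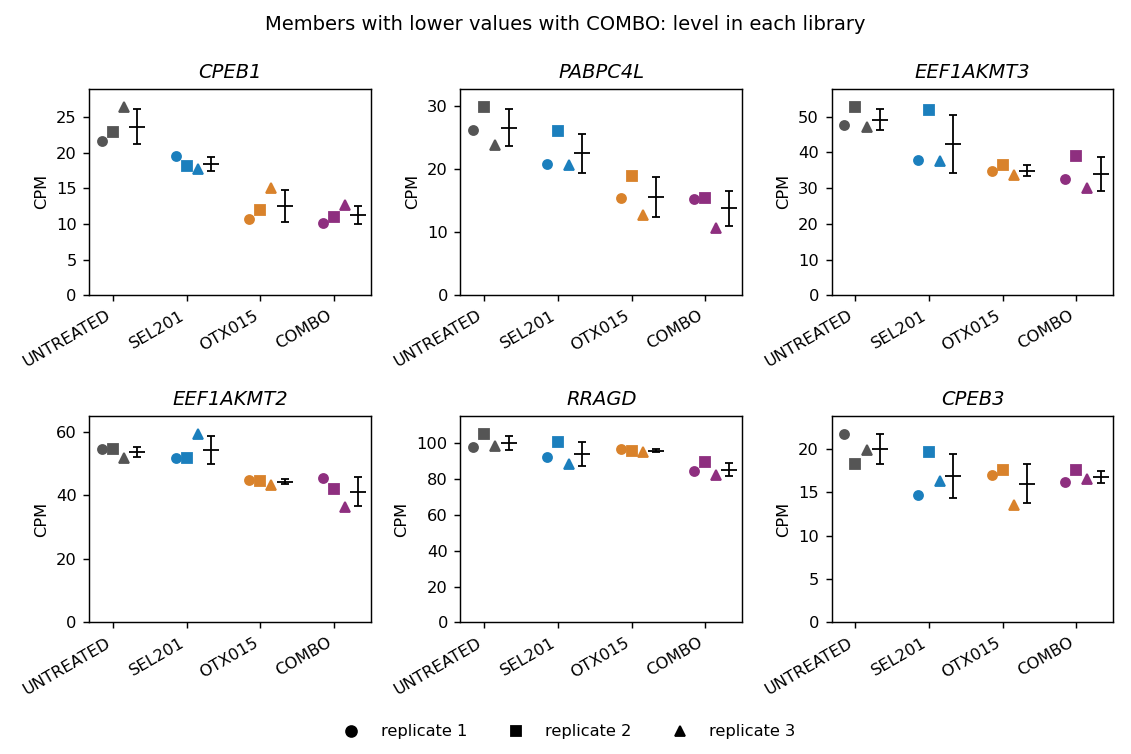
Level in CPM of CPEB1, PABPC4L, EEF1AKMT3, EEF1AKMT2, RRAGD and CPEB3 in each library (points, shaped by replicate number), with the mean and SD of each group (bars, n = 3) and axes from 0. For the first 5 all COMBO libraries lie below all UNTREATED libraries, and for CPEB3, which did not pass the test, they do so with 16.2 to 17.6 CPM against 18.3 to 21.7.

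RRAGB and RRAGD encode Rag GTPases, which bring mTORC1 to the lysosome when amino acids are plentiful. RRAGD stood at 97.8, 105 and 98.4 CPM in UNTREATED, 92.4, 101 and 88.5 in SEL201, 96.9, 95.8 and 95.3 in OTX015 and 84.3, 89.6 and 82.3 in COMBO. COMBO lay below UNTREATED and OTX015 and overlapped with SEL201. The change with COMBO was -0.23 (SE 0.06, edgeR adjusted p = 0.0048), and it was -0.09 with SEL201 (adjusted p = 0.32) and -0.06 with OTX015 (adjusted p = 0.42). COMBO against OTX015 gave -0.17 (SE 0.06, adjusted p = 0.12, and 0.017 with the block). RRAGB had a change of 0.07 with COMBO (edgeR adjusted p = 0.37).

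Other genes of the mTOR and AKT pathway numbered 12 measured of 38 listed. Without the block COMBO raised 3 and lowered 1, where 57.8% of all genes were called. With the block it raised 5 and lowered 1, and the share of all genes called with the block in this comparison is not given here. Their median log2 change was 0.08, against 0 over all genes. TBC1D7, a subunit of the TSC complex that inhibits mTORC1, rose from 114 ± 3.54 to 162 ± 12.1 CPM (a log2 difference of 0.51, SE 0.06, edgeR adjusted p = 2.8e-06). NPRL2, a subunit of the GATOR1 complex that switches off Rag GTPases, rose by 0.22 (adjusted p = 0.00017). PRR5, a partner of mTORC2, fell from 53.1 ± 3.17 to 38.3 ± 3.37 CPM (log2 change -0.47, adjusted p = 0.00027). RPS6KA2, which encodes the kinase RSK3 downstream of ERK, rose by 0.41 (adjusted p = 0.0012).

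The 7 mitochondrial synthetase genes changed little. With COMBO 2 rose and none fell, where 28.3% of all genes were called higher and 29.6% lower. Their median log2 change was 0.11, against 0 over all genes, and the largest single change was 0.14. MARS2, for methionine, stood at 288, 292 and 302 CPM in UNTREATED, 293, 290 and 287 in SEL201, 335, 316 and 330 in OTX015 and 309, 318 and 325 in COMBO. The libraries with OTX015 lay above all those without it. The rise was 0.15 with OTX015 (SE 0.04, edgeR adjusted p = 0.0036) and 0.11 for COMBO (SE 0.04, adjusted p = 0.019), the latter lost without COMBO replicate 3 (0.065), UNTREATED replicate 1 (0.075) or 2 (0.05) or the 4 number 3 libraries (0.054).

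WARS2, for tryptophan, held 240, 250 and 247 CPM in UNTREATED, 262 in each SEL201 library, 266, 272 and 277 in OTX015 and 273, 267 and 268 in COMBO. Every treated library was above every UNTREATED library. Its changes were 0.14 with OTX015 (edgeR adjusted p = 0.0033), 0.13 with COMBO (SE 0.03, adjusted p = 0.0042) and 0.09 with SEL201 (adjusted p = 0.078, and 0.039 with the block). PARS2, for proline, was higher with OTX015 (0.16, adjusted p = 0.039), a call lost without any 1 of the UNTREATED libraries (0.065, 0.084 and 0.094 without replicates 1, 2 and 3) or OTX015 replicate 1 (0.19) or 2 (0.056), or with only the compared groups (0.073). Its change with COMBO was 0.14 (edgeR adjusted p = 0.057, and 0.019 with the block). NARS2 had changes of 0.13 with OTX015 (adjusted p = 0.073, and 0.004 with the block) and 0.08 with COMBO (adjusted p = 0.23). FARS2 (-0.08) and RARS2 (-0.01) did not pass with COMBO.

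Among 19 further genes of tRNA charging, 10 were measured, and COMBO raised 5 and lowered 1, where 57.8% of all genes were called. Their median log2 change was 0.09, against 0 over all genes. TARSL2, a second threonyl-tRNA synthetase gene, rose from 68.7 ± 1.21 to 141 ± 7.81 CPM (a log2 difference of 1.04, SE 0.06, edgeR adjusted p = 4.9e-09), with 90.8 ± 5.67 CPM in SEL201 and 126 ± 3.37 in OTX015. It exceeded any rise of the 33 but that of PAIP2B. MTFMT, which formylates the mitochondrial initiator tRNA, rose by 0.27 (adjusted p = 0.00038), and GATB, a subunit of the mitochondrial amidotransferase that makes glutaminyl-tRNA, fell by 0.22 (adjusted p = 0.00098). PSTK, which phosphorylates seryl-tRNA on the way to the selenocysteine tRNA that EEFSEC delivers, rose from 47.6 ± 7.32 to 61.8 ± 1.5 CPM (log2 change 0.38, SE 0.09, adjusted p = 0.0022). SEPSECS, the next enzyme of that route, named after its values were seen, had a change of -0.01 (adjusted p = 0.93).

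Of 13 mitochondrial translation factor genes 7 were measured, with 2 raised and 1 lowered by COMBO, where 57.8% of all genes were called, and a median log2 change of 0.06. MTRF1, a mitochondrial release factor gene, fell by 0.25 (edgeR adjusted p = 0.0035). Its relative MTRF1L rose by 0.16 (adjusted p = 0.0075, and 0.064 without the 4 number 3 libraries). MTFR1L, the other raised gene of the list, rose by 0.21 (adjusted p = 0.00067) but belongs to a mitochondrial fission regulator family, so 1 of the 6 measured translation factor genes rose. Of a list of 25 genes of termination, recycling and ribosome rescue 2 were measured, and COMBO lowered 1 and raised none, where 57.8% of all genes were called. The lowered gene, IMPACT, fell by 0.20 (edgeR adjusted p = 0.0049) but encodes an inhibitor of the eIF2α kinase GCN2 and no factor of these steps. The other, GSPT2, a release factor gene, had a change of 0.12 (adjusted p = 0.12, and 0.014 with the block).

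**Figure D5:**
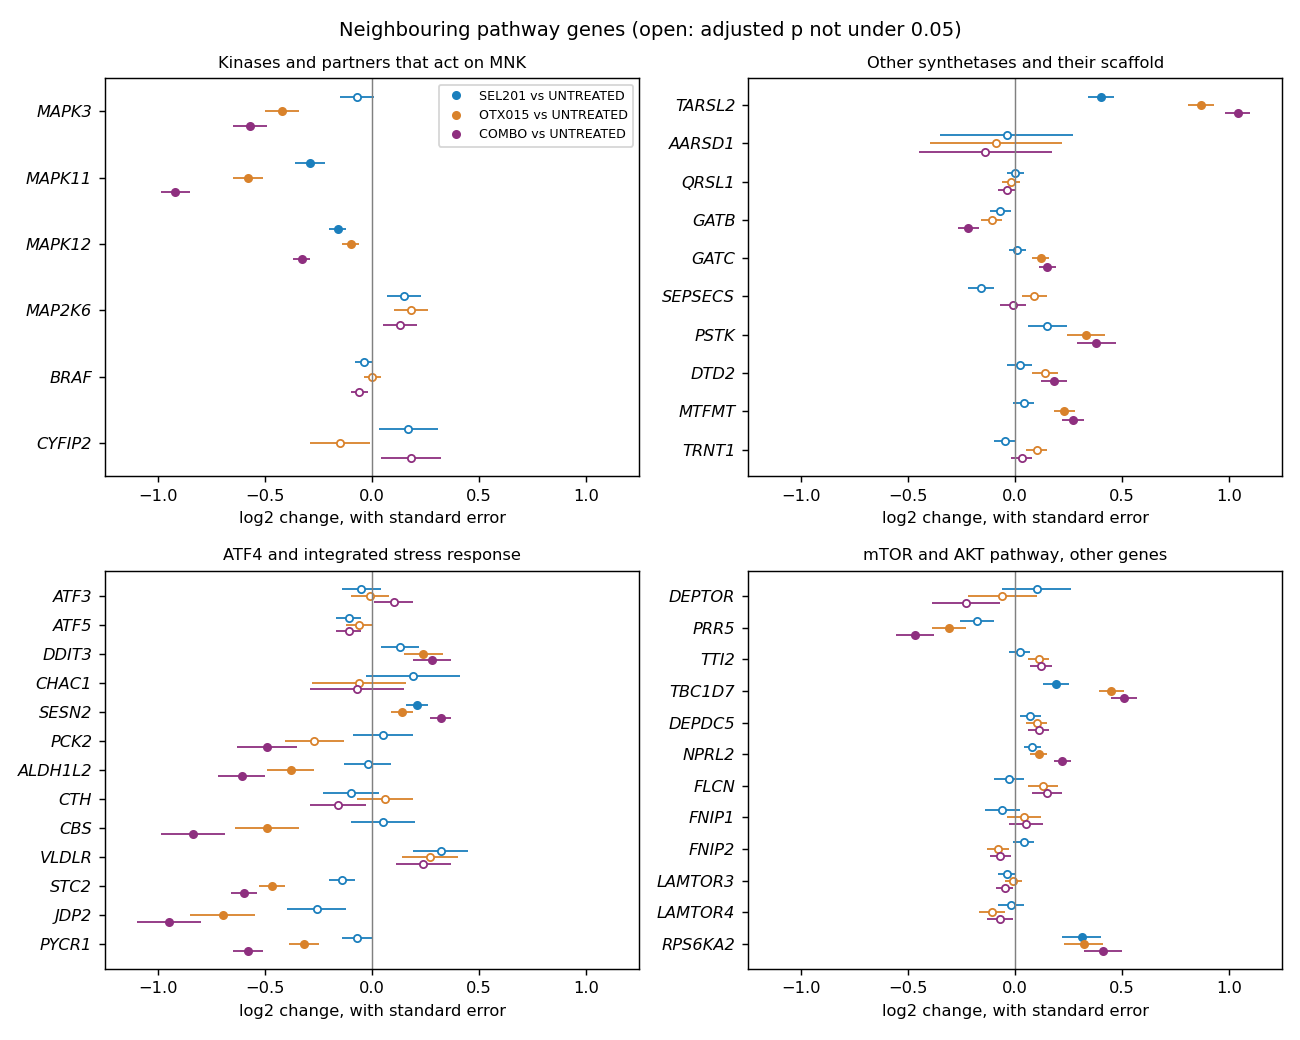
Log2 change against UNTREATED with its standard error for the measured genes of 4 neighbouring lists (kinases that act on MNK with their activators, relatives and partners, other synthetases and their scaffold, the integrated stress response, and mTOR and AKT), for SEL201 (blue), OTX015 (orange) and COMBO (purple), with filled points where the edgeR adjusted p was under 0.05. TARSL2 is the highest point at 1.04 with COMBO, and JDP2 (-0.95), MAPK11 (-0.92) and CBS (-0.84) are the lowest.

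The pseudogenes and near-copies did not pass with COMBO. For EIF4BP3 the log2 difference was -0.29 (SE 0.12, edgeR adjusted p = 0.053, and 0.0062 with the block), for EEF1A1P5 it was 0.18 (adjusted p = 0.12, and 0.014 with the block), for EIF5AL1 0.10 (adjusted p = 0.53) and for EIF1AXP1 -0.12 (adjusted p = 0.78). Their counts are uncertain because reads can be shared with the parent gene. In GENCODE v29 transcripts, 82.2% of the 75-base stretches of EEF1A1P5 also occur in another gene (EEF1A1 above all), as do 70.1% for EIF1AXP1, 23.5% for EIF4BP3 and 10.9% for EIF5AL1. The same applies in part to EIF3C (44.1%), EIF4A1 (38.2%), SARS2 (36.6%), CPEB1 (20.9%), EEF1E1 (15.5%), EEF1AKMT2 (12.9%) and EEF2KMT (8.29%), and the other 22 genes were under 5%. How the authors' counting treated strand is not given in the sources used here.

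Treated groups were also compared with each other. OTX015 against SEL201 called 6 of the 33 higher and 3 lower (27.3%, against 23.5% of all genes). The higher genes were PAIP2B, EEFSEC, EEF1AKMT1, MKNK1, MARS2 and LARP1B, and the lower ones were CPEB1 (-0.56, SE 0.13, edgeR adjusted p = 0.009), PABPC4L (-0.53, adjusted p = 0.036) and EEF1AKMT2 (-0.29, adjusted p = 0.024). The count of 3 lower was 1 without OTX015 replicate 1 (edgeR adjusted p = 0.095 for PABPC4L and 0.056 for EEF1AKMT2) or 3 (0.13 and 0.068). The call of PABPC4L was also lost without SEL201 replicate 1 (0.053) or 2 (0.14), that of EEF1AKMT2 without OTX015 replicate 2 (0.057), SEL201 replicate 3 (0.096) or the 4 number 3 libraries (0.082), and that of LARP1B (0.17, edgeR adjusted p = 0.024) without OTX015 replicate 2 (0.095) or SEL201 replicate 1 (0.053) or 3 (0.085). EEF1AKMT1 was higher with OTX015 than with SEL201 by 0.26 (adjusted p = 0.011), which was lost without OTX015 replicate 1 (0.055), and MARS2 by 0.17 (adjusted p = 0.0043). With the replicate block 4 more passed: EIF4A1 (0.26, adjusted p = 0.42 without the block and 0.0035 with it), PABPC1L (0.18, 0.54 and 0.0012), EIF5A2 (0.14, 0.087 and 0.018) and EEF1AKMT3 (-0.28, 0.12 and 0.0059). The 23.5% is the share of all genes without the block, and the share with it is not given here.

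COMBO against SEL201, which gives what OTX015 added, called 9 higher and 3 lower (36.4%, against 40.1% of all genes), with CPEB1 at -0.72 (SE 0.14, edgeR adjusted p = 0.00083), PABPC4L at -0.70 (adjusted p = 0.0047) and EEF1AKMT2 at -0.39 (adjusted p = 0.0022). Lower calls numbered 6 without SEL201 replicate 3 and also 6 with the replicate block, where 53.4% of all genes were called. The block added EIF4A1 (0.40, adjusted p = 0.15 without it and 1.9e-05 with it), PABPC1L (0.30, 0.23 and 1e-06) and EIF2AK3 (0.14, 0.06 and 0.014) among the higher genes. Among the lower it added EEF1AKMT3 (-0.32, 0.052 and 0.001), RRAGD (-0.14, 0.088 and 0.025) and EIF4BP3 (-0.28, 0.082 and 0.012). Rises included PAIP2B at 0.85 (adjusted p = 0.00051) and CPEB2 at 0.18 (adjusted p = 0.04), the latter lost without SEL201 replicate 1 (0.11) or 2 (0.13), COMBO replicate 2 (0.058) or 3 (0.18) or the 4 number 3 libraries (0.055), or with only the compared groups (0.062). COMBO against OTX015, which gives what SEL201 added, called none of the 33 in edgeR, where 6.91% of all genes were called. At an unadjusted p under 0.05, 4 were higher and 1 lower, and DESeq2 called 3 higher. With the replicate block 4 were higher (MKNK1, EIF5A2, LARP1B and CPEB2) and RRAGD was lower, where 22.2% of all genes were called. The log2 differences of these 5 were 0.13, 0.18, 0.11, 0.23 and -0.17, with standard errors of 0.04 to 0.07 without the block.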

How the data were processed

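The deposited table holds the authors' raw counts of each gene in each library. Tools in the submitters' processing notes are STAR 2.5.4b, featureCounts, SAMtools 1.9, Trimmomatic, FastQC and DESeq2, and the build is hg19. Their roles, the annotation and the strand setting are not stated in the sources used here. The labels' protocols state stranded poly(A) libraries and paired reads of 150 bases. Mean counts in the table run from 78.7 to 9160, and those of the 33 genes from 143 to 7410. Totals over the table's genes are not the sequencing depth.

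Counts were fitted in R 4.3.3 with edgeR 4.0.16 (TMM factors; filterByExpr, which kept all 8579 genes; the quasi-likelihood test glmQLFTest). All 12 libraries entered 1 fit with the 4 group means, for 7 contrasts, with Benjamini-Hochberg adjustment over all genes. A gene was called at an adjusted p under 0.05. Each standard error is the absolute log2 change over the square root of F. Other settings tried were DESeq2 1.42.0, RLE size factors, no filter, at least 10 CPM in 3 libraries, a replicate block, only the compared groups, leaving out each library, and leaving out all number 3 libraries. The steps were tested on simulated counts.

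The 33 genes and the lists of related genes were chosen with earlier results of these data known. Named in detail are MKNK1, the member with the lowest p of each role class, up to 10 members per direction past the threshold with COMBO (no overlap between groups, at least 5 CPM in one), up to 5 per direction in OTX015 against SEL201 and up to 5 in the interaction, and up to 4 genes of lowest p per list. Other members are given briefly so that all 33 are accounted for. No pair of libraries of a group agreed within sampling noise (chi-square over genes at least 6.34 per degree of freedom). Same-numbered libraries shared deviations from their group means (correlation across genes 0.26 to 0.57 in 18 pairs, -0.46 to 0.19 in the other 36), so the numbers were taken to pair the libraries, on these data alone. With the block the biological coefficient of variation was 4.35%, against 7.92% without it. Shared 75-base stretches were counted over GENCODE v29 transcripts, and promoter windows of GRCh38.p14 were used for sequence only, since the counts are on another build.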

Additional observations from a re-analysis of the deposited data

How the results depend on the processing

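The number of the 33 genes called higher with SEL201 was 5, and 3 with only the compared groups fitted, and between 3 and 5 when libraries were left out. The number lower with SEL201 was 0, but 1 with DESeq2, 2 with the replicate block, 1 with only the compared groups and 0 to 1 with libraries left out. For COMBO against SEL201 the number lower was 3, but 6 with the replicate block and 3 to 6 with libraries left out. For COMBO against OTX015 the number higher was 0, but 1 with RLE size factors, 3 with DESeq2, 1 with the stricter filter, 4 with the replicate block and 0 to 1 with libraries left out, and the number lower was 0, but 1 with the block. For OTX015 against SEL201 the number lower was 3, and 1 to 3 with libraries left out. For the interaction the number lower was 0, but 1 with the replicate block. The other counts stayed within 1.5 times in the alternatives run, and no called change of a member turned its direction in any of them. The replicate block gave 30 further calls of a member in a comparison and lost none. All 30 are given with the results above, and it changed no other call of a member. The stricter filter kept 7638 genes and 30 of the 33. Scaling with RLE or DESeq2 moved the median of all genes by 0.006 or less on the log2 scale. With 3 libraries per group, and counts of 143 for SARS2 at the low end, small changes of low genes may be missed. The causes of these differences were not tested. Without the 50 bases after the start site, the E-box was in 15.4% of the windows of these genes (6.49% of all windows in the promoter table). The ETS motif was in 23.1% (8.82% of all those windows).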
